A study of Drosophila melanogaster with 6 samples.

Results

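The Enhancer of split complex, E(spl) complex, is a cluster of Notch target genes on arm 3R of the Drosophila melanogaster genome. Its binding by Suppressor of Hairless, Su(H), in embryos was described from 1 list of ChIP-seq peaks. All peaks that lay wholly within 3R 21820000 to 21870000 of FlyBase release 5, the location taken for the complex, were included. They numbered 13, out of 505 peaks on 3R and 4403 in the whole list. Within these bounds position alone decided which peaks were included, with no filter on width or score. The region was, however, picked with earlier results of these data known, so all comparisons of width, score, spacing and coverage are given as descriptions with no test.

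Su(H) is the DNA-binding protein of the Notch pathway. When Notch is activated its intracellular part enters the nucleus and joins Su(H) and the co-activator Mastermind at target genes, while in unstimulated cells Su(H) acts with Hairless and co-repressors to keep these genes off. The bHLH genes of the complex are the classic targets in flies. They encode repressors that recruit the co-repressor Groucho and, in the neurogenic ectoderm of the embryo, stop cells next to a future neuroblast from taking the neural fate.

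The series held 3 libraries of Su(H) ChIP and 3 of input DNA from embryos of a y cn bw sp strain. The ChIP antibody was a rabbit polyclonal against an epitope within amino acids 259 to 594. All 6 libraries had the same labelled genotype, with the alleles y[1] and oc[R3.2], then Gr22b[1] with Gr22d[1] and cn[1], then CG33964[R4.2] with bw[1] and sp[1], and also LysC[1] and lab[R4.2], beside MstProx[1] with GstD5[1] and Rh6[1]. The stage was labelled embryo 0-8 and the sex unknown, but the collection protocol names 8-16 hours for the egg laying. Whole embryos were used, so the peaks cannot be assigned to a cell type, and binding in few cells cannot be told apart from weak binding in many. The list names no library, and therefore holds no value per replicate and no spread between replicates. Read depth is unknown.

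The complex holds 13 genes of the list used here, and all 13 were found next to each other on 3R in the RefSeq gene table of Release 6, with 6 long non-coding RNA genes and no other gene between the first and the last. In the order of rising coordinates they begin with E(spl)mdelta-HLH (CG8328), E(spl)mgamma-HLH (CG8333) and E(spl)mbeta-HLH (CG14548). These 3 encode bHLH repressors, of which E(spl)mdelta-HLH is known from the R4 photoreceptor of the eye, E(spl)mgamma-HLH from neural stem cells and E(spl)mbeta-HLH from vein patterning of the wing. Next come 3 genes that are not bHLH genes. E(spl)malpha-BFM (CG8337) and E(spl)m2-BFM (CG6104) belong to the Bearded family, small proteins that inhibit the ubiquitin ligase Neuralized. Between them lies Kaz-m1 (CG8342, formerly E(spl)m1), whose product carries a Kazal-type protease inhibitor domain. In the remainder of the complex bHLH and Bearded family genes alternate at first, in the order E(spl)m3-HLH (CG8346), E(spl)m4-BFM (CG6099), E(spl)m5-HLH (CG6096), E(spl)m6-BFM (CG8354), E(spl)m7-HLH (CG8361) and E(spl)m8-HLH (CG8365). E(spl)m8-HLH is the gene altered in the dominant E(spl)D mutant that gave the complex its name. The last gene is gro (CG8384), which encodes the co-repressor Groucho and is not a bHLH gene.

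The gene table and the peak list are on different releases. Coordinates were not converted, so no peak was assigned to a gene, and the location of the complex within the region was not checked against release 5 annotation. Gene order is set beside the peak pattern further on, on the premise that 3R runs in the same direction in both releases.

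Su(H) peaks filled most of the region. Together the 13 peaks covered 39.9 kb of 50 kb, or 79.8%, and 86.5% of the 46.1 kb from the first to the last peak. The distribution was uneven, since 7 peaks were both strong and broad and 6 were neither. A peak is called strong below where its score exceeded 39.28, the 95th percentile of the 492 other 3R peaks, and broad where its width exceeded 917 bp, the same percentile of their widths. By this rule 5.08% of the other 3R peaks are strong and 5.08% are broad by construction, and 1.22% are both. In the region the same 7 of 13 peaks were strong and broad. They held 36.7 kb, which is 92.0% of the bases under peaks in the region. The remaining 6 are called weak, which means only that they did not exceed the score threshold. Their median score, 19.7, was above 18.45, the upper quartile of the other 3R peaks. The score is the authors' value from the peak caller MACS, on a scale that is not given, and it only ranks peaks within this list.

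**Figure D1:**
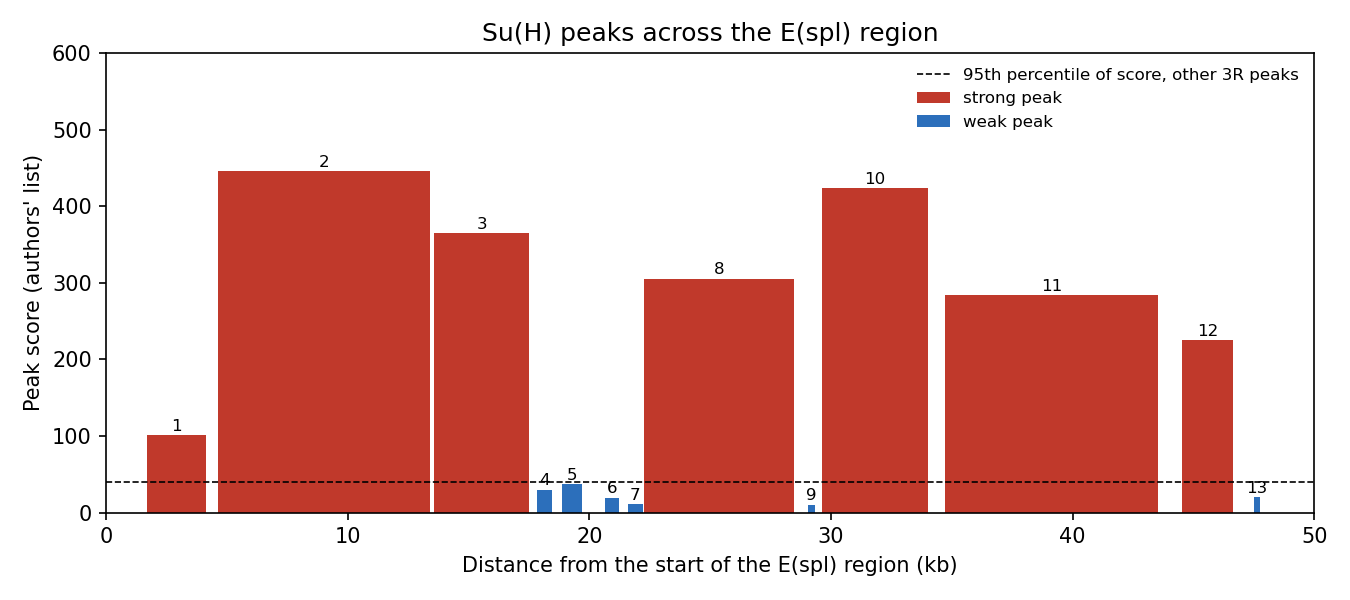
Peaks of the E(spl) region, drawn to scale. The x axis is the distance in kb from the start of the region, each bar spans 1 peak and is numbered by position, and its height is the authors' peak score; the dashed line is the 95th percentile of score of the other 3R peaks (39.28). The 7 strong peaks stand at scores of 100.73 to 445.63, and peaks 4 to 7 form a weak stretch between them.

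Numbered by position, the left part of the region held peaks 1, 2 and 3. Peak 1, from 21821675 to 21824137, was 2463 bp wide with a score of 100.73, the lowest of the strong peaks. Peak 2, from 21824615 to 21833378, was 8764 bp wide and had the highest score of 3R, 445.63. Peak 3, from 21833560 to 21837513, was 3954 bp wide and scored 364.86. Only 181 bp separated peaks 2 and 3, and 477 bp separated peaks 1 and 2. This left block was thus almost continuous, with 95.8% of its 15.8 kb under peaks.

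A weak stretch of 4.74 kb followed, from 21837514 to 21842249. It held peaks 4, 5, 6 and 7, whose widths of 588 to 829 bp were all above the median of the other 3R peaks, 338 bp. Peak 4 scored 29.38 and peak 5 scored 36.86. Peak 6 scored 19.32 and peak 7 scored 10.99. The first 3 of these lay above the upper quartile of score of the other 3R peaks, 18.45. The last lay below their median, 13.69. Peaks covered 56.1% of the stretch, with gaps of 422, 933 and 363 bp between them, so the signal in the list was lower here but not absent.

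The right part began abruptly, as peak 8 started 51 bp after the end of peak 7. Peak 8, from 21842250 to 21848449, was 6200 bp wide and scored 305.32. A narrow peak of 273 bp with a score of 9.83, the lowest of the region, came next as peak 9. Peak 10, from 21849619 to 21854029, was 4411 bp wide and scored 423.21, which ranked second on 3R. Peak 11, from 21854718 to 21863528, was the widest of 3R with 8811 bp, but 4 other peaks of the region had a higher score than its 283.69. Peak 12, from 21864535 to 21866619, was 2085 bp wide and scored 224.94. The right block of 24.4 kb from peak 8 to peak 12 had 89.4% of its bases under peaks, against 95.8% for the left block. Its gaps ran from 283 to 1006 bp, the longest being that between peaks 11 and 12. Peak 13, a weak peak of 265 bp with a score of 20.12, ended the group 880 bp beyond peak 12.

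The peak pattern and the gene order can be set side by side only as sequences of items. Among the peaks, the weak stretch was the only place inside the region where more than 1 weak peak in a row stood between strong ones. It lay from 34.4% to 44.6% of the distance between the first and the last peak, with 3 strong peaks before it and 4 after it. Among the genes, E(spl)malpha-BFM, Kaz-m1 and E(spl)m2-BFM, at places 4 to 6 of 13, were the longest series of neighbours without a bHLH gene. Before these stood 3 bHLH genes, namely E(spl)mdelta-HLH, E(spl)mgamma-HLH and E(spl)mbeta-HLH, and after them 4, namely E(spl)m3-HLH, E(spl)m5-HLH, E(spl)m7-HLH and E(spl)m8-HLH. Strong peaks thus numbered 3 before and 4 after the weak stretch, and bHLH genes 3 before and 4 after these 3 genes. These counts leave out E(spl)m4-BFM, E(spl)m6-BFM and gro, which also come after the 3 genes, and the weak peaks 9 and 13. The count of strong peaks depends on how the list divides the signal. Peaks 2 and 3, 181 bp apart, become 1 block when gaps of up to 200 bp are joined. With gaps of up to 500 bp joined, peaks 1 to 5 become 1 block. With the 90th percentile of score as the threshold, peaks 4 and 5 would also count as strong, and the counts of strong peaks would be 5 and 4. Whether the weak stretch lies at those genes, or whether each strong peak belongs to 1 bHLH gene, was not tested. Strong peaks of up to 8811 bp leave room for more than 1 gene under a peak.

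Set against the rest of 3R, the strong peaks of the region stood above the whole range of scores. The highest score among the 492 other 3R peaks was 93.48, at 304831 to 305458, and all 7 strong peaks of the region exceeded it. The median score was 100.73 in the region, against 13.69 among the other 3R peaks. The 13 peaks made up 2.57% of the 3R peaks, while they held 15.7% of the bases under peaks.

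Widths separated the region less completely than scores did. The median width was 2085 bp in the region, against 338 bp among the other 3R peaks. All 7 strong peaks were wider than 2 kb, whereas 1 of the other 492 peaks was, a peak of 4985 bp at 7197817 to 7202801 with a score of 54.66. That peak was wider than 4 of the strong peaks of the region and narrower than peaks 2, 8 and 11. The next widest peak elsewhere on 3R measured 1880 bp. On the 5 large arms (2L, 2R, 3L, 3R and X) 17 peaks exceeded 2 kb, and 7 of these were the strong peaks of the region. Among the 2056 other peaks of these arms, 1 scored higher than peak 2, and 12 scored higher than peak 1. In width, 1 of the 2056 exceeded peak 11, the widest of 3R. Peak 12, the narrowest strong peak of the region, was exceeded by 9.

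**Figure D2:**
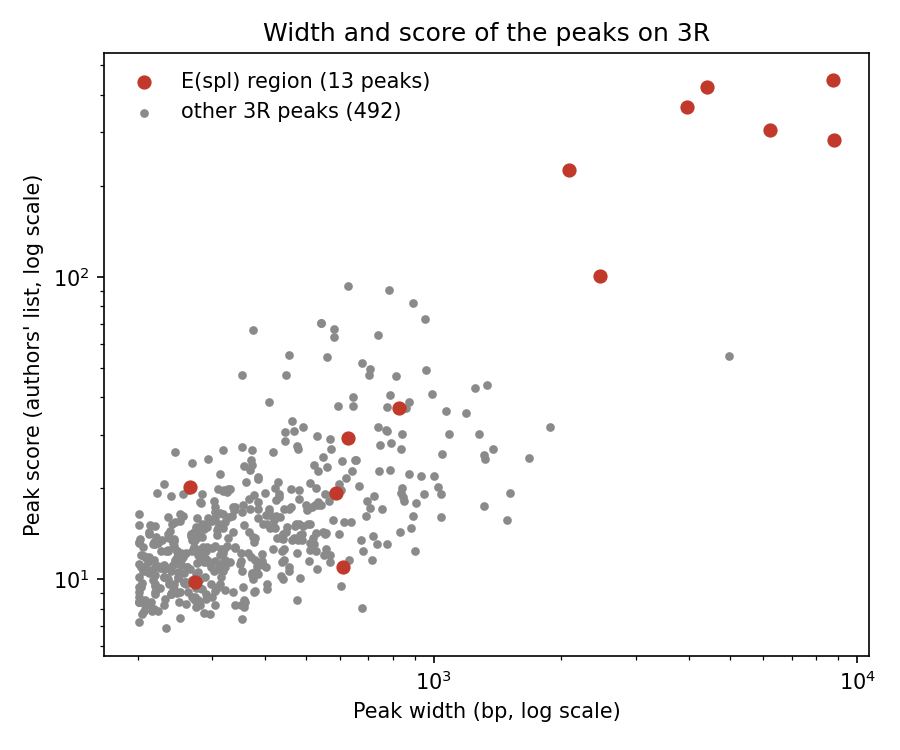
Width (x axis, bp, log scale) and authors' score (y axis, log scale) of each peak on 3R, with the 13 peaks of the E(spl) region in red and the 492 other 3R peaks in grey. The 7 strong peaks of the region form a separate group above 2 kb and above a score of 100, while the 6 weak ones lie among the grey points.

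Strong peaks also differed in shape. The 7 strong peaks of the region had a median width of 4411 bp and ranged from 2085 to 8811 bp. The 25 strong peaks elsewhere on 3R had a median width of 702 bp and ranged from 352 to 4985 bp, and 6 of them were also broad. Their scores, from 40.02 to 93.48, were all below those of the region, so the 2 sets were not matched in score. The 6 weak peaks of the region had a median width of 600 bp and a median score of 19.7. The other 3R peaks at or under the same score threshold had medians of 322 bp and 13.5. Of the 6 weak peaks, 4 were wider than the median of the other 3R peaks, and these were the 4 of the weak stretch.

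Wider peaks had higher scores, within the region and outside. The Spearman coefficient of score and width was 0.88 over the 13 peaks of the region and 0.61 over the 492 other 3R peaks. Within the 7 strong peaks it was 0.50, where peak 10 combined the second highest score with a middling width and peak 11 the greatest width with a lower score. These peaks come from 1 list and lie side by side, so the coefficients are descriptions.

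Spacing within the region was short. The 12 gaps between adjacent peaks had a median of 450 bp and a range of 51 to 1006 bp, against a median of 15.9 kb over 490 gaps elsewhere on 3R. In the 50% of all listed peaks with the highest score these medians were 784 bp in the region and 69.6 kb elsewhere on 3R, and in the top 20% they were 583 bp and 199.7 kb. Of the 12 gaps, 11 were at most 1 kb, against 80 of the 490 elsewhere. All 13 peaks of the region had a neighbour within 1 kb, whereas 28.5% of the other 3R peaks did. Broad peaks in a short region leave little room for long gaps, as only 6.21 kb lay between peaks from the first to the last. When gaps of up to 500 bp were joined, the region comprised 6 blocks. The first of these, 18.0 kb long, linked peaks 1 to 5 across the edge of the weak stretch. With gaps of up to 200 bp joined there were 11 blocks, and with 1000 bp 2 blocks, of 41.9 kb and 3.23 kb.

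**Figure D3:**
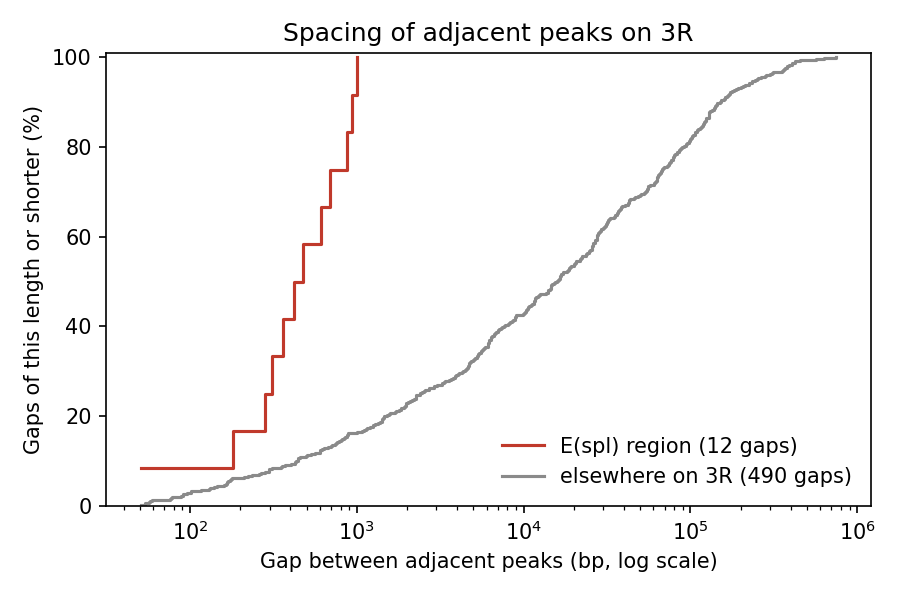
Cumulative share of gaps between adjacent peaks (y axis, %) by gap length (x axis, bp, log scale), in red for the 12 gaps of the E(spl) region and in grey for the 490 gaps elsewhere on 3R. The longest gap of the region, 1006 bp, is far below the median elsewhere, 15.9 kb.

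The group ended sharply on both sides. The first peak lay 1.68 kb inside the left edge of the region and the last ended 2.24 kb inside its right edge, so no member lay across an edge. To the left the nearest peak was 115 kb away, at 21706589 to 21706844, and was 256 bp wide with a score of 16.18. To the right the nearest was 20.0 kb away, at 21887797 to 21888002, with a width of 206 bp and a score of 12.83. The one after that began 188 kb beyond peak 13. These flanking peaks were narrow and lay close to the median score of the arm.

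Coverage was compared over windows of 50 kb, moved by 10 kb along 3R. Of 2745 windows that did not overlap the region, 58.7% held no whole peak, and the highest coverage was 21.0%, against 79.8% in the region. The number of peaks was less distinctive, since 2 of these windows, which overlap each other, also held 13 peaks.

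**Figure D4:**
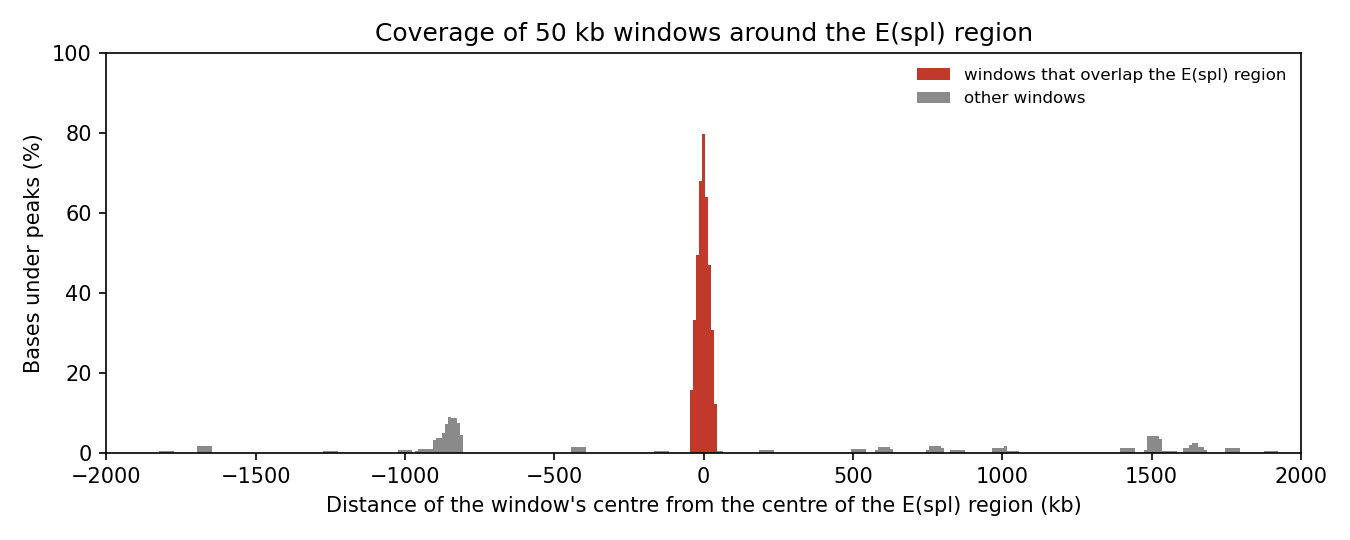
Bases under peaks (y axis, %) in windows of 50 kb moved by 10 kb, by the distance of the window's centre from the centre of the E(spl) region (x axis, kb). Red bars are windows that overlap the region, rising to 79.8%, and grey bars are other windows, which reach at most 8.93% within the 2000 kb shown on each side.

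The window of 3R with the most peaks outside the region, 25080000 to 25130000, also held 13, but they covered 7.05 kb, or 14.1%. Their scores ran from 8.21 to 49.71, their widths from 244 to 1253 bp, and the median gap was 1781 bp, so the number of peaks alone did not distinguish it. The window with the highest coverage, 7170000 to 7220000, held 10 peaks over 10.5 kb, and 4985 bp of that was the single broad peak named above. On 3L, the run of at least 5 peaks with the highest summed score lay from 14960789 to 14972917. Its 5 peaks covered 47.1% of 12.1 kb, and 2 of them were strong and broad by the 3R thresholds, with scores of 289.92 and 138.38 and widths of 1614 and 2441 bp. Both scores were within the range of the strong E(spl) peaks, 100.73 to 445.63. The first of these 2 peaks was narrower than all 7 strong E(spl) peaks, while the other was wider than peak 12 of the E(spl) region, which measured 2085 bp.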

How the data were processed

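Su(H) ChIP-seq was carried out on embryos, with 3 ChIP and 3 input DNA libraries. The authors deposited 1 peak list for all of them, on FlyBase release 5 per the file headers, with a start, an end and a score per peak. The deposited score comes from MACS per the source column of the file, and its scale, the calling threshold, the use of the input and the pooling of libraries are not stated in the file or the labels. Build BDGP5 and the tools BWA, MACS2 and CASAVA (1.7.0.2, 1.7.0.3) appear in the submitters' processing notes, with no role for each. A peak list can split 1 broad enriched stretch into several peaks, and counts of peaks depend on this.

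Widths, gaps, coverage and blocks (gaps of up to 500 bp joined) were computed with Python 3.11.15, numpy 2.4.6 and pandas 2.3.3. Thresholds for strong and broad peaks came from the 492 other 3R peaks. The measures were checked on simulated peaks with known answers and matched in 50 of 50 sets. The members, lists and thresholds were chosen with earlier results of these data known. Named items were all peaks of the region, the 13 listed genes of the complex, and 3 comparison regions chosen by rule. Gene names and order came from the RefSeq table of Release 6, whose coordinates served only to sort the genes. Scores were summed only to choose among runs and windows. The planned descriptions of promoter motifs and of protein identity were not run, since no sequences were used here, and the bHLH repressor gene h was to serve in those alone.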

Additional observations from a re-analysis of the deposited data

How the results depend on the processing

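The median width and the median score of the region stayed above those of the other peaks in each alternative run on them. Coverage and number of peaks in other windows had no alternative. Of the other 3R peaks, 99.8% were narrower than the median peak of the region (98.2% in the top 20% of scores). The share that scored lower than it was 100%, also in every alternative on 3R. Among all other peaks on the 5 large arms, 99.4% scored lower. The number of peaks ran from 9 (top 20% of scores) to 14 (50 kb added on each side). Blocks numbered 11 with gaps of up to 200 bp joined and 2 with 1000 bp, against 6. Coverage of 79.8% was 78.0% in the top 50% and 76.3% in the top 20% of scores, and 80.2%, 83.9% and 90.2% after joining gaps of up to 200, 500 and 1000 bp. The median gap of 450 bp was 784 bp in the top 50% of scores, with 11 peaks of the region left. In the top 20%, with 9 left, it was 583 bp. With the 90th percentile as the threshold for strong, 9 peaks passed, peaks 4 and 5 among them, the weak stretch shrank to 2.55 kb with peaks 6 and 7, and the strong peaks before and after it numbered 5 and 4, against 3 and 4. With the 99th it was unchanged. Alternatives on motif letters were left aside for want of sequences. Leaving out a single library was not feasible with 1 list for the series. No paired analysis was possible because peaks carry no replicate number.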
